A study of Mus musculus with 11 samples.

Results

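Oxidative phosphorylation is described here through the genes of its subunits, which are split between the nuclear and the mitochondrial genome. The members were the 13 protein genes of mitochondrial DNA and the nuclear genes whose symbols begin with Nduf, Sdh, Uqcr, Cox or Atp5 and carry the letters of a subunit, without pseudogenes named as such. They numbered 97 of the 24250 genes in the table, 13 mitochondrial and 84 nuclear, and were chosen by name and not by level or change. All 84 nuclear symbols are in RefSeq, where Ndufs6b is classed as a pseudogene. RNA had been sequenced from mouse small intestine in 3 groups. The FSP group (n = 4) is labelled by the herbal powder with Poria that the series title names, the HFD group (n = 4) is read as high-fat diet, and the ND group (n = 3) is read as normal diet. No label gives the diet of FSP, although the series title speaks of obese mice, and none gives strain, age, sex, dose, duration or the stretch of intestine taken. Whether each library is a different animal is not stated, so a p-value here reflects scatter among libraries that could be technical.

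The subunits build the electron transport chain and the ATP synthase of the inner mitochondrial membrane. Complex I takes electrons from NADH and complex II from succinate. Complex III passes them to cytochrome c, complex IV passes them on to oxygen, and complex V uses the resulting proton gradient to make ATP. Complex II is encoded wholly in the nucleus, whereas the other 4 complexes also hold subunits from mitochondrial DNA. That DNA is transcribed from both strands as long precursors, with ND6 as the only protein gene on its own strand. Several subunits of complexes IV and V exist as isoforms that are used in different tissues, such as muscle, liver or testis. In the small intestine the pathway serves absorptive enterocytes, which move nutrients and assemble lipid particles at the cost of ATP.

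Libraries held 31842012 to 38246024 fragments, recovered from the deposited values. HFD 1 stood apart from the other libraries in its mitochondrial share, given below, and results that rest on it are given with and without it. Enterocyte genes were high throughout, with a mean log2(FPKM + 1) over 10 genes of 9.81 or more in FSP libraries, 9.23 to 9.91 in HFD and 9.19 to 9.64 in ND. Every FSP library was above every ND library. Of the 10, Alpi and Lct rose and Epcam fell in HFD against ND, and Epcam rose in FSP against HFD, and the part of enterocyte content in the results was not tested. Gene lists that mark position along the small intestine differed between groups. Of 10 distal genes, 9 fell and 0 rose in HFD against ND, and their summed FPKM was 348 to 490 in HFD and 1561 to 12059 in ND. Of 7 tested proximal genes, 5 rose and 1 fell (Slc40a1), and all 10 listed had a summed FPKM of 20739 to 28363 in HFD and 1466 to 7084 in ND. Most of that sum came from 2 genes. Fabp1 was at 11349 to 14642 FPKM in HFD and 476 to 4390 in ND, and Rbp2 at 8763 to 12556 and 913 to 2389. FSP was at 600 to 4254 for the distal and 6615 to 17608 for the proximal genes, and 5 of the 10 distal genes rose in FSP against HFD. Gut position therefore cannot be told apart from group in any comparison below, and its part in the results was not tested.

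The 13 mitochondrial genes spanned a wide range of levels. Their values are FPKM, fragment counts corrected for gene length and library depth. Levels of different genes can be set side by side only within the limits given in the next paragraph. COX1, the catalytic subunit of complex IV, was the most abundant, with a mean of 47843 over the 11 libraries (24517 to 120231). CYTB, the cytochrome b of complex III, averaged 20406, and the complex I genes ND1, ND2, ND4 and ND5 averaged 17210, 12093, 6675 and 6028. The other 7 genes were far lower. COX2 and COX3, the companions of COX1 in the core of complex IV, averaged 1128 and 703, and ATP6, which forms the proton path of complex V, averaged 500.1. The lowest were ND3 at 197, ATP8 at 103, ND4L at 100.1 and ND6 at 85.5. COX1 alone gave 41.2% to 59.7% of the mitochondrial fragments of a library, whereas COX2, COX3, ATP6, ATP8, ND3 and ND4L together gave 0.941% to 1.41%.

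The low genes were compared with annotated nuclear transcripts, since reads that match several places can be counted in different ways. GENCODE lists 7 unprocessed pseudogenes of mitochondrial origin side by side on chromosome 1, at chr1:24611535-24616197 (GRCm38, minus strand, 4663 bases). Those of ATP6, COX2, COX3, ND4L and the first 876 bases of ND4 have 0 mismatches to the mitochondrial gene over their length, that of ND3 has 1, and that of the last 492 bases of COX1 has 6. Of all stretches of 100 bases in a gene, 97.6% (ND3), 98.5% (ND4L), 99.5% (ATP6), 99.5% (COX2) and 99.9% (COX3) also occur in an annotated nuclear transcript. The share was 60.8% in ND4, 30.8% in COX1, 3.195% in ND2 and 0% in CYTB, ND1, ND5, ND6 and ATP8. ATP8 would fall in a gap of 233 bases between the copies of ATP6 and COX2, where no transcript is annotated. How the counting treated reads with several matches is unknown here. The levels of the 5 genes with over 97% shared stretches are therefore uncertain, and those of ND4 (60.8%) and COX1 (30.8%) are uncertain in part. Shares of mitochondrial fragments or of summed FPKM that include these genes carry that uncertainty too. Its size was not tested. ND6 is uncertain too, as it overlaps ND5 on the other strand by some bases and the use of strand is not stated, and ATP8 and ND4L overlap ATP6 and ND4 by some bases. The sequence of ND4L, the only mitochondrial gene past the threshold in any comparison below, is given from MT:9877-10173 (GRCm38, plus strand), with capitals marking the 294 bases identical to the copy on chromosome 1, out of 297.
ND4L: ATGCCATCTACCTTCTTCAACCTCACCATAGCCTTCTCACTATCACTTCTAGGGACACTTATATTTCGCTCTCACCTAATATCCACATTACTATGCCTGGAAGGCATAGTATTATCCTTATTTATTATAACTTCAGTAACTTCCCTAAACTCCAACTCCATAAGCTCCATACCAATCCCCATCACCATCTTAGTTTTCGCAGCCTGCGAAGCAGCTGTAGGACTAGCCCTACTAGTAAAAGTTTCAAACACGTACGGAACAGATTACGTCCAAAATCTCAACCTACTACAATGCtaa

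**Figure D1:**
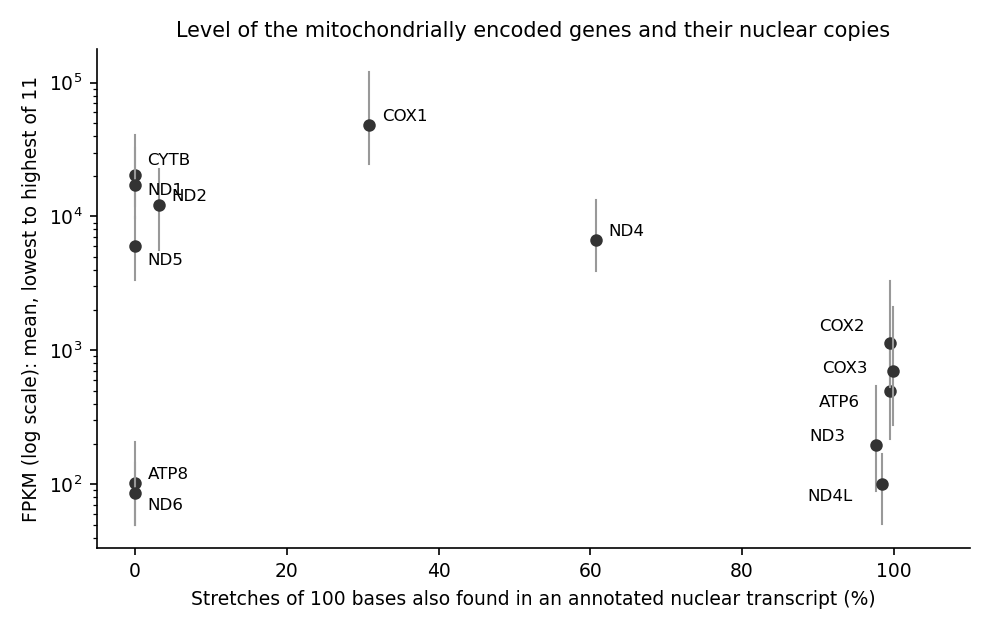
Mean FPKM over 11 libraries (points, log scale) with the lowest and highest library (lines) for the 13 mitochondrial genes, against the percentage of 100-base stretches also found in an annotated nuclear transcript. The 5 genes at 97.6% to 99.9% average 100.1 to 1128 FPKM; at 0%, CYTB, ND1 and ND5 average 6028 to 20406, while ATP8 and ND6 average 103 and 85.5.

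Mitochondrial transcripts took a larger part of the HFD libraries on average, but the groups overlapped. Their share of summed FPKM was 21.9%, 16.9%, 13.4% and 12.9% in FSP 1 to 4. It was 40.4%, 26.3%, 22.8% and 18.1% in HFD 1 to 4, and 22.2%, 18.0% and 16.3% in ND 1 to 3. The means were 16.3% ± 4.18 in FSP (SD, n = 4), 26.9% ± 9.62 in HFD (SD, n = 4) and 18.8% ± 3.04 in ND (SD, n = 3). HFD 1 was the highest of all libraries, and HFD 4 lay below FSP 1 and ND 1. In each group the share fell as the replicate number rose, while the fragment total rose. At every number the HFD library had the highest share. What the number stands for is not stated, and its part in these shares was not tested. Without HFD 1 the HFD mean was 22.4%. Counted as fragments, the share was 8.29% to 15.4% in FSP, 12.7% to 32.4% in HFD and 11.2% to 14.4% in ND. In bulk tissue, fewer cells of a type and less RNA per cell cannot be told apart, so these shares do not say whether cells held more or less mitochondrial RNA.

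**Figure D2:**
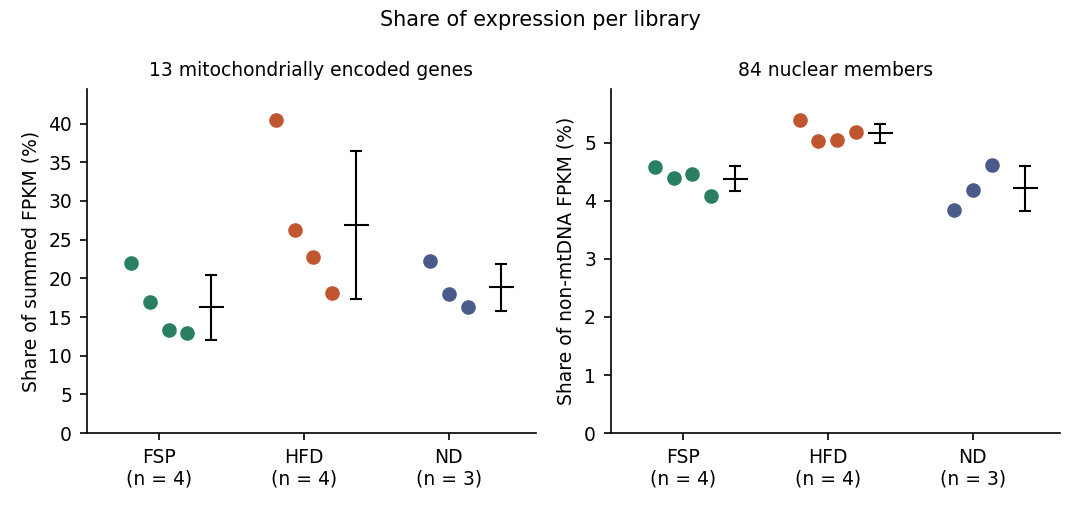
Left, share of the 13 mitochondrial genes in the summed FPKM of each library; right, share of the 84 nuclear genes in the FPKM of all genes outside mitochondrial DNA. Points are libraries, the bar beside each group is the mean ± SD; mitochondrial shares overlap between groups, whereas nuclear shares are 5.03% to 5.38% in HFD and at most 4.61% elsewhere.

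Among single mitochondrial genes, 1 of 13 rose in HFD against ND, and 0 passed in FSP against HFD or in FSP against ND. ND4L, a small membrane subunit of complex I, had 170, 150.1, 102 and 152 FPKM in HFD 1 to 4, against 74.2, 71.1 and 54.5 in ND 1 to 3. Every HFD library was above every ND library, and the log2 change was 1.08 (SE 0.296, limma adjusted p = 0.0256). The call was lost without HFD 1, ND 1, ND 2 or ND 3 and with no filter on low genes, and ND4L is among the genes with near-identical nuclear copies. ND4, a proton-pumping subunit of complex I, had 13326, 9411, 8000 and 6808 FPKM in HFD 1 to 4 and 6085, 5043 and 3906 in ND 1 to 3. Its groups did not overlap either, but its log2 change of 0.88 missed the threshold (adjusted p = 0.0531). COX1 was at 120231, 56021, 46165 and 38651 FPKM in HFD and 38326, 37148 and 38308 in ND. All HFD libraries were again the higher ones, HFD 4 by a small margin, and the adjusted p was 0.249. These 3 of the 13 had every HFD library above every ND library, beside 9.28% of all genes. All 3 share stretches with annotated nuclear transcripts, so their levels are uncertain to the extent given above. By limma, 5.36% of the 10296 genes tested rose and 15.1% fell in HFD against ND. By limma-voom on the recovered fragments 2 of the 13 rose, beside 525 of 10295 genes. By limma, 3 of the 13 were higher at an unadjusted p under 0.05, beside 9% of all genes. The log2 change was above 0 in 12 of the 13, beside 28.5% of all genes. The median log2 change of the 13 was 0.54, beside −0.21 over all genes tested, and 0.17 without HFD 1.

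In FSP against HFD all 13 mitochondrial genes had a negative log2 change, with a median of −0.73 beside 0.12 over all genes tested, but none passed the threshold. Over all genes, 2.83% rose and 0.913% fell in this comparison, and 71.2% had a log2 change above 0. For the 13 genes, limma-voom also gave 0 calls. At an unadjusted p under 0.05, 8 were lower and 0 higher, beside 3.92% and 14.8% of all genes. In other settings without a replicate block, at most 1 of the 13 passed as lower. It was ND2 with a filter of 5 FPKM and without HFD 4, ND5 with median-ratio scaling, and ND4L without FSP 1. With replicate number as a block in the fit, 4 passed as lower, COX2, CYTB, ND2 and ND4, beside 97 of 10296 genes. ND2, a proton-pumping subunit of complex I, had the lowest adjusted p of the 13 in the main fit, 0.0603. It was at 9509, 7935, 5668 and 6662 FPKM in FSP 1 to 4, against 22766, 17124, 15819 and 9176 in HFD 1 to 4. FSP 1 lay above HFD 4, and the other FSP libraries were below every HFD library. CYTB had 22570, 14585, 12366 and 11881 FPKM in FSP and 40726, 29458, 23420 and 19697 in HFD (log2 change −0.88, SE 0.288, adjusted p = 0.124). ND5, also of complex I, was the only mitochondrial gene with all FSP libraries below all HFD libraries, at 3369 to 5688 FPKM in FSP and 6225 to 9921 in HFD (adjusted p = 0.0738). Over all genes, 2.3% showed such a separation. Without HFD 1, the library with the largest mitochondrial share, the median log2 change of the 13 genes was −0.64. In FSP against ND their median was −0.26, but it was −0.08 without FSP 3, −0.17 without FSP 4, −0.11 without ND 1 and −0.43 without ND 3. In this comparison 0 passed by limma or limma-voom, and ND2 alone had an unadjusted p under 0.05 (log2 change −0.78, adjusted p = 0.265). At that p 8.55% of all genes were lower. Every FSP library was below every ND library for ND2, as for 10.9% of all genes.

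Of the nuclear members, the 77 with a mean of at least 20 FPKM averaged 28.2 to 766 FPKM over all libraries, with a median of 184, and 81 of the 84 passed the filter of a mean of 1 FPKM. The 3 that did not are Cox6a2 and Cox8b, isoforms of striated muscle, and Ndufa4l2. The summed FPKM of the 84 was 17351 to 20821 in FSP, 19388 to 22511 in HFD and 15155 to 20173 in ND, with overlap between all groups. As a share of the FPKM outside mitochondrial DNA, which removes the effect of a large mitochondrial share on the rest of a library, the nuclear members made up 4.59%, 4.39%, 4.46% and 4.07% in FSP 1 to 4. The share was 5.38%, 5.03%, 5.05% and 5.18% in HFD 1 to 4 and 3.84%, 4.18% and 4.61% in ND 1 to 3. All HFD libraries were above all FSP and all ND libraries on this scale, whereas FSP and ND overlapped. The means were 4.38% ± 0.220 in FSP (SD, n = 4), 5.16% ± 0.163 in HFD (SD, n = 4) and 4.21% ± 0.385 in ND (SD, n = 3). The sum of mitochondrial FPKM was 3.45 to 6.13 times the nuclear sum in FSP, 4.27 to 12.6 times in HFD and 4.22 to 7.42 times in ND, so the ratio of the sets overlapped between groups.

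In HFD against ND, 18 of 81 nuclear members rose and 0 fell, beside 5.36% and 15.1% of all genes. The remaining 63 did not pass. Over all 81 the median log2 change was 0.28, with 64 above 0, beside −0.21 over all genes tested, of which 28.5% were above 0. In 28 of the 81, every HFD library was above every ND library, a pattern shown by 9.28% of all genes, and in 0 was every HFD library below every ND library, beside 33.6% of all genes. At an unadjusted p under 0.05, 33 were higher and 0 lower, beside 9.0% and 28.6% of all genes. By limma-voom 16 rose and 0 fell, beside 525 and 1550 of 10295 genes. The count of 18 rests on ND 1 and ND 2: without either of them 1 member rose, without HFD 2 the count was 8, and without HFD 3 it was 9. Calls over all 10296 genes fell too. In the main fit 552 rose, beside 264 without ND 1 and 289 without ND 2. Without HFD 2 it was 523 and without HFD 3 it was 387. The count of members also follows the scaling. It was 28 with libraries scaled to equal totals outside mitochondrial DNA, 31 with median-ratio scaling, which brings the median change of all genes to −0.01, and 7 with equal totals over all genes. Of the 10296 genes, 621, 1093 and 375 rose with these scalings, in the same order. The split of calls over all genes was 26.2% higher as deposited, 54.2% with median-ratio scaling and 48.7% after quantile normalization.

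**Figure D3:**
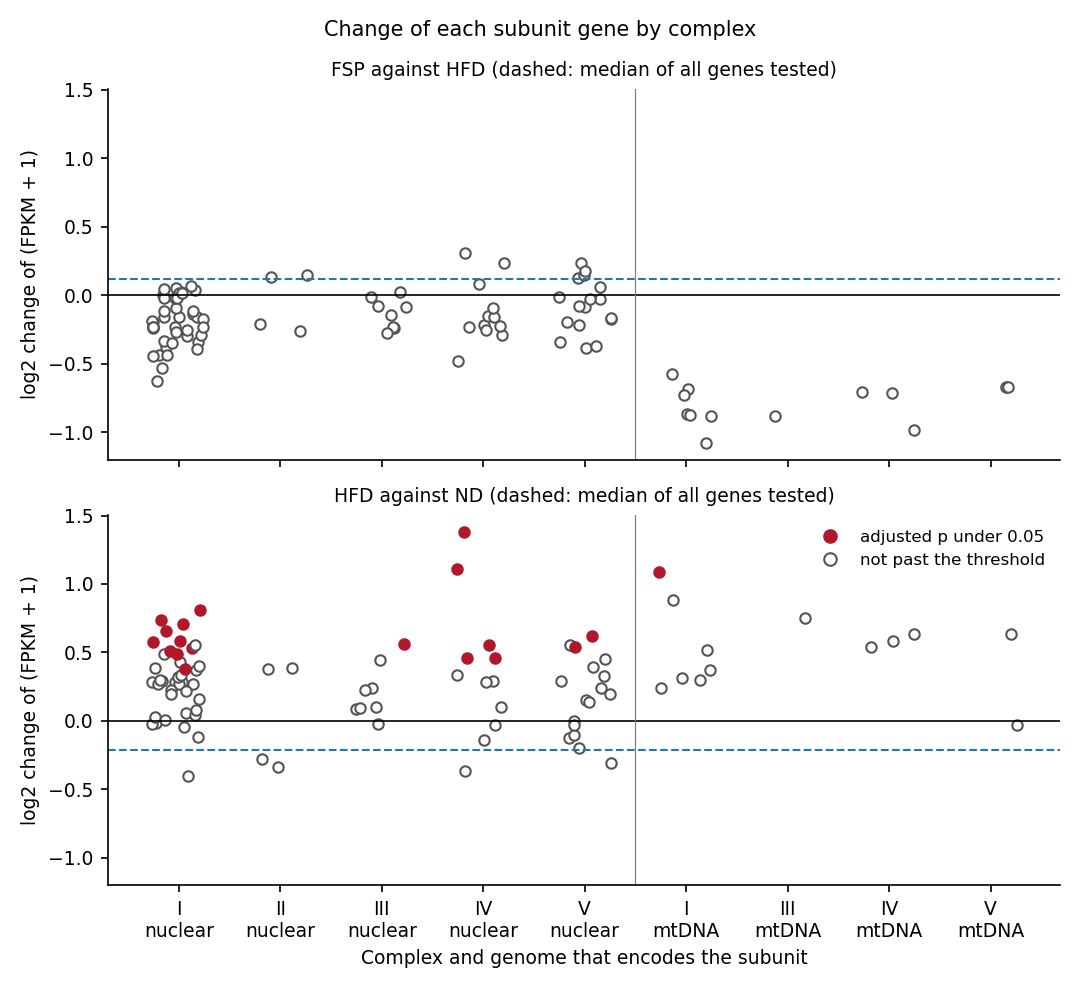
Log2 change of (FPKM + 1) for each tested subunit gene by complex and genome, in FSP against HFD (top) and HFD against ND (bottom); filled points have a limma adjusted p under 0.05, and the dashed line is the median of all genes tested. The 18 nuclear genes and ND4L that pass in HFD against ND are all higher in HFD, none passes in FSP against HFD, and all 13 mitochondrial genes there lie at or below −0.58.

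By number, most of these rises were in complex I, 10 of 40 tested, beside 18 of 81 nuclear members and 5.36% of all genes. Complex IV had the larger share, 5 of 12. Ndufa1, a small membrane subunit needed for assembly of complex I, had 267, 224, 223 and 241 FPKM in HFD 1 to 4 and 105, 139 and 171 in ND 1 to 3. The log2 change was 0.81 (SE 0.212, adjusted p = 0.0218). Ndufa5, an accessory subunit of the matrix arm, had 223, 173, 142 and 158 FPKM in HFD and 85.2, 106 and 126 in ND (log2 change 0.71, adjusted p = 0.0295). Ndufc1, Ndufb4, Ndufb2 and Ndufb3 of the membrane arm rose by 0.66, 0.58, 0.38 and 0.48 on the log2 scale, and Ndufv3 and Ndufa10, accessory subunits, by 0.58 and 0.53. Ndufb4c, at 1.91 to 3.67 FPKM in HFD and 0.576 to 1.86 in ND, also passed, but all of its 100-base stretches occur in another annotated gene, so its value is uncertain. Ndufb3 is named here although it falls outside the rule for named genes, after its values were seen.

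The list of 22 genes for the catalytic core and its close partners held 2 rises and 0 falls in HFD against ND. The other 20 did not pass, and the median log2 change of the list was 0.16. Over all genes, 5.36% rose and 15.1% fell. Ndufs8, which carries iron-sulfur clusters in complex I, had 99.6, 108, 102 and 89.8 FPKM in HFD 1 to 4 and 62.3, 66.7 and 81.0 in ND 1 to 3. All HFD libraries were above all ND libraries (log2 change 0.51, adjusted p = 0.0137). Cox5b, a structural subunit of complex IV, rose by 0.46 on the log2 scale (adjusted p = 0.0497) and was close to the threshold. Ndufs1, the largest iron-sulfur subunit of complex I, did not pass, at 16.8 to 34.6 FPKM in HFD and 33.5 to 34.8 in ND (log2 change −0.40, adjusted p = 0.244). The catalytic subunits of complex V showed no call: Atp5b had 417, 588, 803 and 976 FPKM in HFD and 727, 831 and 911 in ND (log2 change −0.31, adjusted p = 0.409), and Atp5a1 had a log2 change of −0.12. Sdha, the flavoprotein of complex II, was at 70.7 to 187 FPKM in HFD and 131 to 148 in ND (log2 change −0.28, adjusted p = 0.508). Its HFD values enclosed those of ND. Whether core and accessory subunits differed was not tested.

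The remaining rises were in complexes III, IV and V, and complex II had 0 of 4, read against the same 5.36% of all genes. In complex III, 1 of 8 rose: Uqcrq, a small subunit, had 183 to 234 FPKM in HFD and 112 to 160 in ND (log2 change 0.56, adjusted p = 0.0400). Complex V had 2 of 17. Atp5j, which lies in the stalk between its parts, had 210, 219, 183 and 176 FPKM in HFD 1 to 4 and 112, 127 and 145 in ND 1 to 3 (log2 change 0.62, SE 0.149, adjusted p = 0.0147). Atp5h, another stalk subunit, rose by 0.54 on the log2 scale and is likewise named after its values were seen. Complex IV had 5 of 12, namely Cox7a1, Cox6b2, Cox6a1, Cox7b and Cox5b. On the scale without mitochondrial DNA further members passed, among them Uqcr11, Sdhc, Sdhb, Ndufa8 and Ndufa11, at adjusted p-values of 0.0174 to 0.0343. As deposited, those 5 had adjusted p-values of 0.0520 to 0.0788.

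Cox7a1 showed the largest change of all members. It encodes the form of complex IV subunit VIIa that is known from heart and skeletal muscle, and it lies at chr7:30184171-30186030 (GRCm38.p6). Its level was 238, 236, 232 and 159 FPKM in FSP 1 to 4. It was 277, 227, 233 and 262 FPKM in HFD 1 to 4 and 72.1, 96.2 and 123 in ND 1 to 3. Every FSP and every HFD library was above every ND library, and FSP and HFD overlapped. The mean in HFD was 2.57 times that in ND (log2 change 1.38, SE 0.193, adjusted p = 0.00120). It was the only nuclear member past the threshold in each fit that left out a library, and it passed in all 12 other settings, with adjusted p-values of 0.000830 to 0.00917. In FSP the mean was 2.23 times that in ND (log2 change 1.16, SE 0.193, adjusted p = 0.0219), and no other nuclear member passed. That call was lost without FSP 1, ND 1 or ND 2, with no filter, and with only the 2 groups in the fit. In FSP against HFD its log2 change of −0.22 did not pass (adjusted p = 0.547).

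The widespread form of the same subunit, Cox7a2, stood at 281 to 366 FPKM in FSP, 243 to 362 in HFD and 274 to 370 in ND, and did not pass in any comparison. Cox7a1 therefore made up 39.4% ± 2.61 of the sum of both in FSP (SD, n = 4), 44.6% ± 5.81 in HFD (SD, n = 4) and 23.1% ± 2.11 in ND (SD, n = 3). The share was 20.8% to 25.0% in ND and at least 36.1% in every FSP and HFD library. Cox6b2, known as the testis form of subunit VIb, was low but followed a similar order. It had 9.73, 7.48, 6.54 and 5.78 FPKM in FSP, 15.0, 10.5, 9.64 and 7.97 in HFD and 2.90, 4.10 and 6.62 in ND. All HFD libraries were above all ND libraries (log2 change 1.11, SE 0.251, adjusted p = 0.0111), and the call was lost without ND 1 or ND 2. Its widespread form, Cox6b1, was at 476 to 655 FPKM in FSP, 531 to 668 in HFD and 500.2 to 656 in ND, and did not pass. Cox6a1 and Cox7b, widespread forms of their subunits, rose by 0.56 and 0.46 on the log2 scale in HFD against ND. Of the isoforms of striated muscle, Cox6a2 was at most 2.08 FPKM and Cox8b at most 1.35 in any library. Among the 3 genes for the identical mature subunit c of complex V, Atp5g1 made up 15.4% ± 0.931 in FSP, 17.7% ± 0.843 in HFD and 14.6% ± 0.303 in ND (SD, n = 4, 4 and 3).

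**Figure D4:**
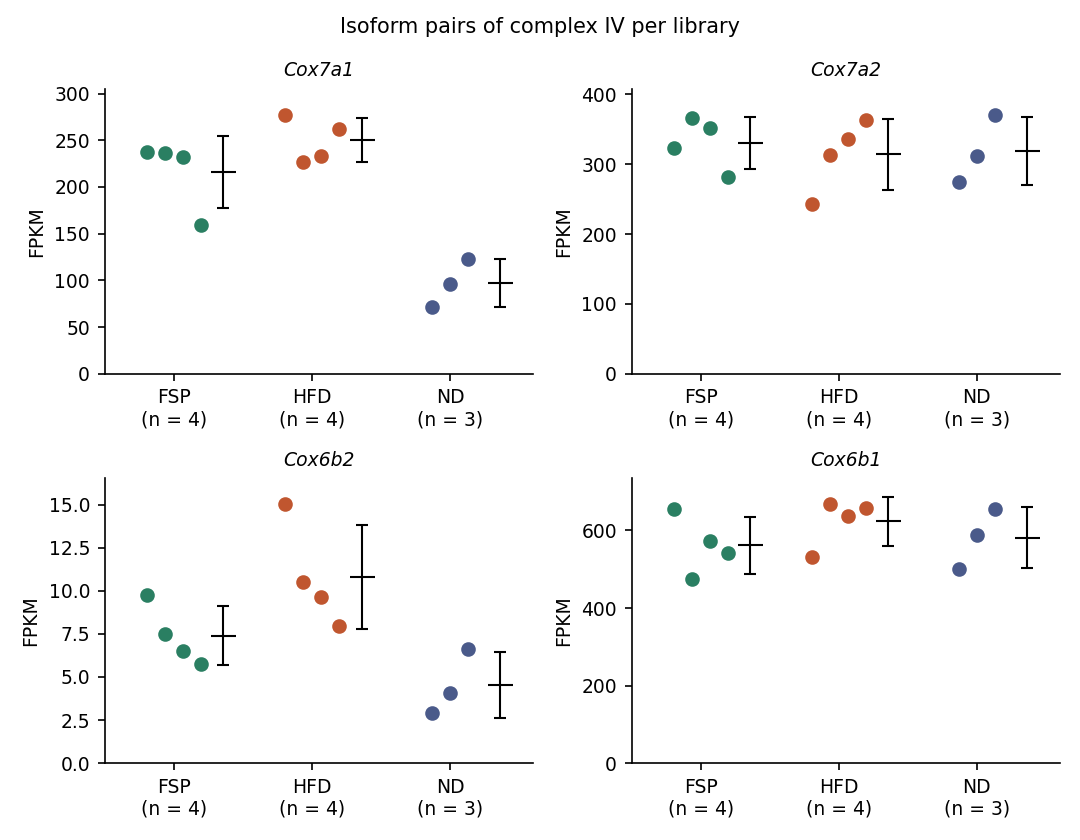
FPKM per library (points) with mean ± SD (bars) for Cox7a1 and its widespread counterpart Cox7a2, and for Cox6b2 and its widespread counterpart Cox6b1, all axes from 0. Cox7a1 is at 159 to 238 in FSP, 227 to 277 in HFD and 72.1 to 123 in ND, whereas Cox7a2 and Cox6b1 overlap between all groups.

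Markers of other cells that could carry muscle-type isoforms were set beside Cox7a1. The summed FPKM of 10 smooth muscle genes was 148 to 1087 in FSP, 209 to 855 in HFD and 617 to 860 in ND, with none at 0 in every library of a group and 0 past the threshold in any comparison, also at an unadjusted p under 0.05. Their median log2 change was −0.60 in HFD against ND. FSP 2 and HFD 1, lowest of their groups with 148 and 209 FPKM of smooth muscle genes, had 236 and 277 FPKM of Cox7a1. FSP 1 and HFD 2, highest of their groups with 1087 and 855 FPKM, had 238 and 227 FPKM of Cox7a1. The part of smooth muscle in the Cox7a1 values was not tested. Of 8 skeletal and heart muscle genes 3 were tested, of which 1 fell in HFD against ND (Acta1) and 1 rose in FSP against HFD (Tnnt3). The sum of all 8 was 9.83 to 18.6 FPKM in FSP, 7.42 to 11.4 in HFD and 14.3 to 23.1 in ND. Of 9 tested adipocyte genes, 2 rose in HFD against ND, Cidec and Pck1, and 7 did not pass. The median log2 change of the 9 was 0.60. In FSP against ND Cidec rose. The sum of 10 was 155 to 671 FPKM in FSP, 203 to 358 in HFD and 126 to 136 in ND, and the adipokine Adipoq was at 0.551 to 28.0 in FSP, 1.38 to 8.22 in HFD and 1.16 to 2.05 in ND. The part of adipose tissue in the Cox7a1 values was not tested. In ND the library with the highest Cox7a1, ND 3, also had the lowest distal and the highest proximal gene level. The part of gut position in the Cox7a1 values was not tested either. B and plasma cell genes summed to 87.0 to 809 FPKM in FSP, 125 to 303 in HFD and 38.4 to 64.7 in ND, and Jchain rose in FSP against ND. Their part was not tested.

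In FSP against HFD, 0 of 81 nuclear members rose and 0 fell by limma, beside 2.83% and 0.913% of all genes. By limma-voom the counts were also 0. An unadjusted p under 0.05 was reached by 13, all lower in FSP, beside 3.92% of all genes lower and 14.8% higher at that p. In 12 of the 81, every FSP library was below every HFD library, beside 2.3% of all genes, and in 0 was it above, beside 8.52%. The log2 change was above 0 in 19 of the 81, beside 71.2% of all genes. Its median was −0.16 beside 0.12 over all genes tested. Ndufs8 came closest to the threshold, with 70.3, 83.7, 72.4 and 76.1 FPKM in FSP 1 to 4 and 99.6, 108, 102 and 89.8 in HFD 1 to 4 (log2 change −0.39, SE 0.112, adjusted p = 0.0798). Its groups did not overlap. Ndufa5 had 126, 136, 103 and 85.7 FPKM in FSP and 223, 173, 142 and 158 in HFD (log2 change −0.62, adjusted p = 0.0935). With libraries scaled to equal totals outside mitochondrial DNA, 3 complex I members fell in FSP: Ndufb2 (log2 change −0.44, adjusted p = 0.0287), Ndufs8 (−0.50, adjusted p = 0.0312) and Ndufa10 (−0.44, adjusted p = 0.0331). On that scale 122 of 10296 genes fell, beside 94 as deposited. The split of calls over all genes was 75.6% higher as deposited and 56.6% higher on that scale. HFD libraries serve in both this comparison and that with ND, so the values of the 2 comparisons are not independent.

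FSP and ND differed least. Besides Cox7a1, 0 nuclear members passed, 4 had an unadjusted p under 0.05, all higher in FSP, beside 5.9% of all genes higher at that p. In 2 of the 81, Cox7a1 and Ndufb4c, every FSP library was above every ND library, beside 5.57% of all genes. The log2 change was above 0 in 63, beside 37.9% of all genes, and the median log2 change was 0.10 beside −0.07 over all genes. The sign of that median rests on ND 1, without which it was −0.01. It was 0.06 without FSP 2 and 0.21 without ND 3. Of all genes, 0.699% rose and 0.33% fell. The share of calls that were higher was 67.9% as deposited and 50.3% with equal totals outside mitochondrial DNA. Cox6b2 had a log2 change of 0.63 (adjusted p = 0.272), and Ndufb3 had 97.6 to 127 FPKM in FSP and 75.6 to 104 in ND (log2 change 0.31, adjusted p = 0.334).

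Most nuclear members are short transcripts, and log2 changes over all genes ran with length. The tested members had a median length of 757 bases, recovered from the values, beside 3257 over all genes. For HFD against ND, other genes had a median log2 change of 0.08 up to 600 bases (196 genes), 0.02 from there to 1000 (481 genes), −0.06 to 1500 (882 genes), −0.16 to 2500 (2053 genes) and −0.24 to 4000 (2613 genes). The nuclear members had medians of 0.33 (29 genes), 0.29 (19 genes), 0.23 (14 genes), 0.10 (15 genes) and −0.21 (4 genes) in the same ranges. The median of the members was above that of other genes of similar length in each of these ranges. In FSP against HFD the members had medians of −0.22, −0.17, −0.15, −0.03 and 0.10 in the same ranges, and other genes −0.03, 0.01, 0.06, 0.10 and 0.13. The part of length in the members' changes was not tested.

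Promoters were read for letters of factors known to regulate nuclear genes of the pathway. The stretch read was the 250 bases before each RefSeq promoter start (GRCm38.p6, both strands). A gene with several starts counted if any of its stretches held the letters. Of the 84 nuclear members 69 had an entry. The NRF1 letters GCATGCGC were in 8 of 69 (11.6%), beside 2.56% of 27025 genes, and in 1 of the 16 members that rose in HFD against ND and had an entry (6.25%). The GABP letters CCGGAAG were in 12 of 69 (17.4%), beside 7.83% of all genes, and in 3 of the 16 (18.75%). The letters TGACCTTG of ERR alpha were in 3 of 69 (4.35%), beside 1.51%, and the motif of YY1 in 1 of 69 (1.45%), beside 0.359%. Shown is the promoter of Cox7a1, the member with the largest change, which holds none of these letters. Promoters of the 3 risen members that hold any follow, with the matches in capitals. Atp5j has 2 promoter entries. The stretch shown for it, picked for its matches, lies inside the gene, which extends to chr16:84835857.
Cox7a1, chr7:30183921-30184170, plus strand: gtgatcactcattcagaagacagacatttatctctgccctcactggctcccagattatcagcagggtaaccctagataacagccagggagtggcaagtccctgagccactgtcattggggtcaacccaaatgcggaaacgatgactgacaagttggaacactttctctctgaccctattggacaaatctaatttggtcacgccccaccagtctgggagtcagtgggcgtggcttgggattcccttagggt
Cox6a1, chr5:115348959-115349208, minus strand, with NRF1 letters on both strands overlapping each other 152 and 154 bases, and GABP letters 9 bases before the start: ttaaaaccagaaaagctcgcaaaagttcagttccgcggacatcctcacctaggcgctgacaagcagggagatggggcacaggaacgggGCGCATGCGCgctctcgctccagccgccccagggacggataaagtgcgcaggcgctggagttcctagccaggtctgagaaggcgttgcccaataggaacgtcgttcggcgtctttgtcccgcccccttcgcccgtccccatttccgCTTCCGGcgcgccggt
Atp5j, chr16:84834977-84835226, minus strand, with YY1 letters 78 bases and GABP letters 54 bases before the start: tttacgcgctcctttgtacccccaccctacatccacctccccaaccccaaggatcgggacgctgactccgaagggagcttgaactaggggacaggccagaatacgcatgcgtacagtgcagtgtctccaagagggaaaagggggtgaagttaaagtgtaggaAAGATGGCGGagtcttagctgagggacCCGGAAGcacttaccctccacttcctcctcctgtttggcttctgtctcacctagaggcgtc
Atp5h, chr11:115419920-115420169, minus strand, with GABP letters 31 bases before the start: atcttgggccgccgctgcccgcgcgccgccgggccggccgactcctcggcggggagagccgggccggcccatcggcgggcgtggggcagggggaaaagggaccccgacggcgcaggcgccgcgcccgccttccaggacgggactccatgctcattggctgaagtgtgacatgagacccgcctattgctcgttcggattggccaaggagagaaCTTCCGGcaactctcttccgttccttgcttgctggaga

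Other genes of mitochondria, taken from lists, are read against the 5.36% of all genes that rose and the 15.1% that fell in HFD against ND. Of 8 tested subunits and partners outside the naming patterns, 2 rose, namely Atpif1, the inhibitor of complex V (log2 change 0.64, adjusted p = 0.0115), and Higd1a, a partner of complex IV (0.54, adjusted p = 0.0138). Cox4i1, the main form of complex IV subunit IV, was at 979 ± 110 FPKM in HFD (SD, n = 4) and 863 ± 144 in ND (SD, n = 3) and did not pass. Of 43 assembly factors 2 rose (Coa6, 0.53, and Uqcc3, 0.60) and 2 fell (Sco1, −0.49, and Ndufaf8, −0.39). Of 77 mitochondrial ribosomal proteins 3 rose and 3 fell, with a median of −0.06, led by Mrps15 (log2 change 1.00, adjusted p = 0.00129). Among 18 genes of pyruvate oxidation and the citric acid cycle, Mdh2, the malate dehydrogenase, rose to 1118 ± 226 FPKM in HFD (SD, n = 4), against 566 ± 157 in ND (SD, n = 3), and Cs, the citrate synthase, fell to 281 ± 30.5 in HFD, against 379 ± 34.8 in ND. Of 20 genes that mark mitochondrial mass 0 rose and 1 fell, Slc25a4, the muscle form of the ADP/ATP carrier (log2 change −1.26, adjusted p = 0.0339), with a median of −0.24.

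Tfam and Ppargc1a are named here as known regulators, after their values were seen. Genes that act on mitochondrial DNA or on the pathway as a whole did not pass in any comparison. Of 28 tested genes of mitochondrial DNA expression, 0 rose and 0 fell in HFD against ND, beside 5.36% and 15.1% of all genes. At an unadjusted p under 0.05, 1 was higher and 3 lower, beside 9% and 28.6% of all genes. Tfam, which packages and transcribes mitochondrial DNA, was at 9.42 ± 1.72 FPKM in FSP (SD, n = 4), 9.24 ± 2.28 in HFD (SD, n = 4) and 11.5 ± 0.903 in ND (SD, n = 3). Of 8 tested regulators of mitochondrial biogenesis 0 rose and 0 fell. At an unadjusted p under 0.05 there were 0 in HFD against ND, 1 higher and 1 lower in FSP against HFD, and 1 lower in FSP against ND. Over all genes, 14.8% were higher and 3.92% lower in FSP against HFD at that p, and 8.55% were lower in FSP against ND. Ppargc1a, a coactivator of genes of the pathway, was at 2.73 ± 0.484 FPKM in FSP, 2.47 ± 0.594 in HFD and 3.16 ± 0.462 in ND (SD, n = 4, 4 and 3). In FSP against HFD, 1 gene of all these lists passed, Sdhaf3, an assembly factor of complex II, which fell to 2.30 ± 0.231 FPKM in FSP (SD, n = 4), against 3.76 ± 0.730 in HFD (SD, n = 4). In that comparison 2.83% of all genes rose and 0.913% fell.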

How the data were processed

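RNA of 11 small intestine samples was sequenced; groups and replicate numbers came from the sample titles. Per the labels' protocols, TRIzol served to isolate total RNA, and the library kit was VAHTS Universal V6. The authors deposited FPKM values, and fastp, HISAT2, HTSeq, R 3.2.0 and build mm10 are listed in the submitters' processing notes. Which annotation, strand setting and FPKM program were used is not given in the sources used here. FPKM divides by the library total, so a large mitochondrial share lowers every other gene.

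From these values, log2(FPKM + 1) of the 10296 genes with a mean of at least 1 FPKM was tested with limma 3.58.1 in R 4.3.3. All 3 groups shared 1 fit with an intensity trend, tested two-sided, with Benjamini-Hochberg adjustment over all genes and a threshold of 0.05. Log2 changes on this scale understate changes of low genes. Whole fragments were recovered for 99.99% of these genes, within 0.02 of a fragment, and limma-voom on them was an alternative chosen after seeing the data. Fits were tested on simulated data. Members and lists were chosen with earlier results of these data known, and sums and set medians carry no test. Named are the mitochondrial genes, core and isoform lists, the 10 largest calls, calls that depend on mitochondrial scaling, and the leading genes of other lists. Whether replicate numbers pair the samples is not stated, and the main fit did not use them. Complexes were assigned by symbol, which puts Ndufa4 in complex I. All 97 members had identical values in the single-library tables.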

Additional observations from a re-analysis of the deposited data

Results flagged for a closer look

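Of 94 sets of 4 libraries checked, 5 held a library far from the other 3, and chance alone gives about 1 in 20. In FSP 1, ND4 stood at 8085 FPKM (4130 to 4452 in the other FSP libraries) and ND6 at 88.0 (49.9 to 56.3), the library with the largest mitochondrial share of its group. In FSP 4, Cox7a1 was low, at 159 FPKM (232 to 238 in the others), and Ndufb4c high, at 2.55 (1.87 to 1.93). In HFD 4, Ndufb3 was at 143 FPKM (122 to 124 in the others).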

How the results depend on the processing

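No call changed direction, but the median of nuclear members in FSP against ND (0.10) did: it was −0.01 to 0.21 with a library left out, negative without ND 1, and 0.04 with equal totals outside mitochondrial DNA. The number of nuclear members higher in HFD against ND (18) was 7 with no filter, 7 with equal totals, 28 with equal totals outside mitochondrial DNA, 31 with median-ratio scaling, 34 after quantile normalization and 31 by limma-voom with library sizes outside mitochondrial DNA, and 1 to 23 with a library left out. Over all genes, 552 rose in the main fit, 491 of 24250 with no filter, 375 with equal totals and 621 with equal totals outside mitochondrial DNA. It was 1093 with median-ratio scaling, 1124 after quantile normalization, 808 by that limma-voom fit and 264 to 568 with a library left out. The nuclear members' median (0.28) was 0.17 with equal totals, 0.53 with median-ratio scaling and 0.42 with that limma-voom fit, and 0.19 to 0.38 with a library left out. The number of mitochondrial genes higher (1) was 0 with no filter, 2 with a filter of 5 FPKM, with median-ratio scaling, with only the 2 groups fitted and by limma-voom, and 0 to 2 with a library left out. In FSP against HFD the nuclear members lower (0) numbered 3 with equal totals outside mitochondrial DNA, after quantile normalization and by the second limma-voom fit, 1 with median-ratio scaling, and 0 to 1 with a library left out. Over all genes, 94 were lower in the main fit, and 122, 193, 152 and 167 in these settings, in the order named. The nuclear members' median (−0.16) was −0.06 with equal totals, −0.26 with equal totals outside mitochondrial DNA, −0.28 after quantile normalization, −0.31 with median-ratio scaling and −0.32 with that limma-voom fit, and −0.22 to −0.11 with a library left out. The mitochondrial genes lower (0) numbered 1 with a filter of 5 FPKM or median-ratio scaling and 0 to 1 with a library left out. In FSP against ND the 1 nuclear member higher was lost, leaving 0, with no filter and with only the 2 groups fitted, and 0 to 1 passed with a library left out. The mitochondrial median was 0.17 to 0.83 in HFD against ND (0.54), −0.998 to −0.635 in FSP against HFD (−0.73) and −0.43 to −0.08 in FSP against ND (−0.26) with a library left out. The causes were not tested. The share of calls over all genes that were higher by the second limma-voom fit was 40.3% (HFD against ND), 49.2% (FSP against HFD) and 42.6% (FSP against ND). With median-ratio scaling it was 51.9% for FSP against HFD. Whether replicate numbers pair the samples is not stated, and 0 of 11 libraries correlated best with a library of their own number. With group means removed, libraries of the same number correlated at 0.38, 0.02, 0.45 and 0.39 in FSP against HFD (numbers 1 to 4). The range was −0.09 to 0.04 in HFD against ND and −0.10 to 0.20 in FSP against ND. With the replicate block, 4 mitochondrial genes were higher in HFD against ND (ND4L, COX2, CYTB and ND4) and 4 lower in FSP against HFD (COX2, CYTB, ND2 and ND4), and the mitochondrial median in FSP against ND was −0.02. Over all genes with that block, 651 were higher in HFD against ND and 97 lower in FSP against HFD. The count of nuclear members higher in HFD against ND was again 18, but without Ndufb4c and Ndufv3. Both limma-voom fits were chosen after seeing the data.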
